A study of Rattus norvegicus with 6 samples.

Results

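The miR-29 family was examined in the small RNA of serum exosomes from male Sprague-Dawley rats, aged 6 to 8 weeks and fed a normal diet. Of the 5 mature miRNAs chosen by name for this family, 3 had entries among the 867 listed sequences and reads in every library, namely rno-miR-29a-3p, rno-miR-29b-3p and rno-miR-29c-3p. The 5p arms rno-miR-29a-5p and rno-miR-29c-5p had no entry and were not analysed here. NXT-Exo (5 libraries) came from rats gavaged daily with 1000 mg/kg of Naoxintong Capsule (NXT), a Chinese medicinal preparation, and Ctl-Exo from rats gavaged daily with 5 mL/kg of saline. Of the Ctl-Exo libraries, 1 (replicate 5) was analysed here, while table columns headed Ctl-Exo 1 to 4 had no sample description among those used here and were not analysed, so every comparison below is with a single control library. The sample titles give 7 days of dosing throughout, whereas by the treatment field NXT-Exo 1 to 5 had 7, 8, 9, 10 and 11 days, and Ctl-Exo 5 had 11 days. Each group held 10 rats. The protocol gives 1 total volume of serum for ultracentrifugation, and the sources used here do not say how it was divided or whether a library stands for 1 rat or a pool, so any spread below is that between libraries. The libraries held 1168686 to 3781718 listed reads, with NXT-Exo 4 the smallest, and Ctl-Exo 5 held 1890463.

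Members of the miR-29 family share the bases at positions 2 to 8, the seed, through which a miRNA pairs with its target mRNAs. In mammals they are transcribed from a pair of gene clusters, each holding a miR-29b copy, and they are best known for repressing collagens and other extracellular matrix genes, and DNA methyltransferases. Low miR-29 accompanies fibrosis of the heart, liver, kidney and lung, and the family is made in fibroblasts, endothelium and many other cells.

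The mature sequences are shown because the family members are separated by few bases, so that the reads assigned to each member rest on these differences. The RefSeq sequences of the members, 5′ to 3′ with the seed in capitals, are identical to the listed sequences once T is read as U. The sequence of miR-29-y is given as listed and is not from RefSeq.
rno-miR-29a-3p: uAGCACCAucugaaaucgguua
rno-miR-29b-3p: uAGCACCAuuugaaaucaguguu
rno-miR-29c-3p: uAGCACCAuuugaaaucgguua
miR-29-y: uAGCACCAucugaaaucggaa
The last of these is no member but a listed sequence without the rat prefix, and these 4 were the sequences in the table with the seed AGCACCA. Counted from 1 at the 5′ end, rno-miR-29a-3p and rno-miR-29c-3p differed by the substitution C10U alone. From rno-miR-29c-3p to rno-miR-29b-3p the substitutions were G18A, U21G and A22U, and rno-miR-29b-3p carried 1 more base at its 3′ end, the end that is known to direct miR-29b to the nucleus. miR-29-y matched rno-miR-29a-3p over the first 19 bases and ended in AA in place of UUA.

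The RefSeq hairpins on assembly GRCr8, with the 3p arm in capitals, show where each member is encoded.
Mir29a, chr4:60617955-60618042, minus strand: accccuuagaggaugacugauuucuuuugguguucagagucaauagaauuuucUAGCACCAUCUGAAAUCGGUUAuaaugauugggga
Mir29b1, chr4:60618334-60618414, minus strand: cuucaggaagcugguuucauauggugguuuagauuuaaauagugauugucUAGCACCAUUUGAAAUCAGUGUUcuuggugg
Mir29b2, chr13:109098831-109098911, plus strand: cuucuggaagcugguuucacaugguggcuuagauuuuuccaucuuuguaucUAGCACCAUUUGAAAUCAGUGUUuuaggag
Mir29c, chr13:109099359-109099446, plus strand: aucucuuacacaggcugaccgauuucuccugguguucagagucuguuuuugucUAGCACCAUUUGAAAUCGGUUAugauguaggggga
The hairpins of Mir29a and Mir29b1 lay 291 bases apart on chromosome 4, and those of Mir29b2 and Mir29c 447 bases apart on chromosome 13. Mir29b1 and Mir29b2 carry the same 3p arm, so the reads of rno-miR-29b-3p cannot be divided between the clusters. The reads of rno-miR-29a-3p were assigned to the chromosome 4 cluster and those of rno-miR-29c-3p to the chromosome 13 cluster by the base at position 10.

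rno-miR-29a-3p, from the chromosome 4 cluster, was the abundant member in all 6 libraries. Its level, as read count relative to the TMM-scaled library total (counts per 1 M reads, CPM), was 2276, 1959, 2019, 2752 and 2280 CPM in NXT-Exo 1 to 5, against 2223 CPM in Ctl-Exo 5. NXT-Exo 4 was the highest, and Ctl-Exo 5 lay in the middle of the NXT-Exo values. By mean level over the 6 libraries it ranked 53 of the 865 miRNAs with at least 1 read. With 3520 to 8741 reads per library, counting error was small, and the 95% Wilson interval of Ctl-Exo 5 ran from 2156 to 2292 CPM. Intervals of this kind cover the counting error of reads only, and the reads carried no molecular identifiers.
rno-miR-29b-3p, encoded in both clusters, was at 156, 149, 105, 151 and 192 CPM in NXT-Exo 1 to 5, against 176 CPM in Ctl-Exo 5, which ranked it 146. NXT-Exo 3 was the lowest and NXT-Exo 5 the highest, and Ctl-Exo 5 was below NXT-Exo 5 only. These values rested on 193 to 736 reads per library.
rno-miR-29c-3p, from the chromosome 13 cluster, was near the limit of precise measurement, with 29, 17, 33, 18 and 38 reads in NXT-Exo 1 to 5, against 15 reads in Ctl-Exo 5. These reads correspond to 9.67, 5.12, 14.8, 14.1 and 9.91 CPM in NXT-Exo, against 8.17 CPM in Ctl-Exo 5, and to a rank of 357. The Wilson interval of Ctl-Exo 5, 4.95 to 13.5 CPM, covered the values of NXT-Exo 1, 2 and 5 and left out those of NXT-Exo 3 and 4. It still overlapped the intervals of NXT-Exo 3 (10.6 to 20.8 CPM) and NXT-Exo 4 (8.90 to 22.2 CPM). The order of the 3 members was the same in every library, with no overlap between their ranges, and since the sequences are 22 or 23 bases long it does not depend on length.

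**Figure D1:**
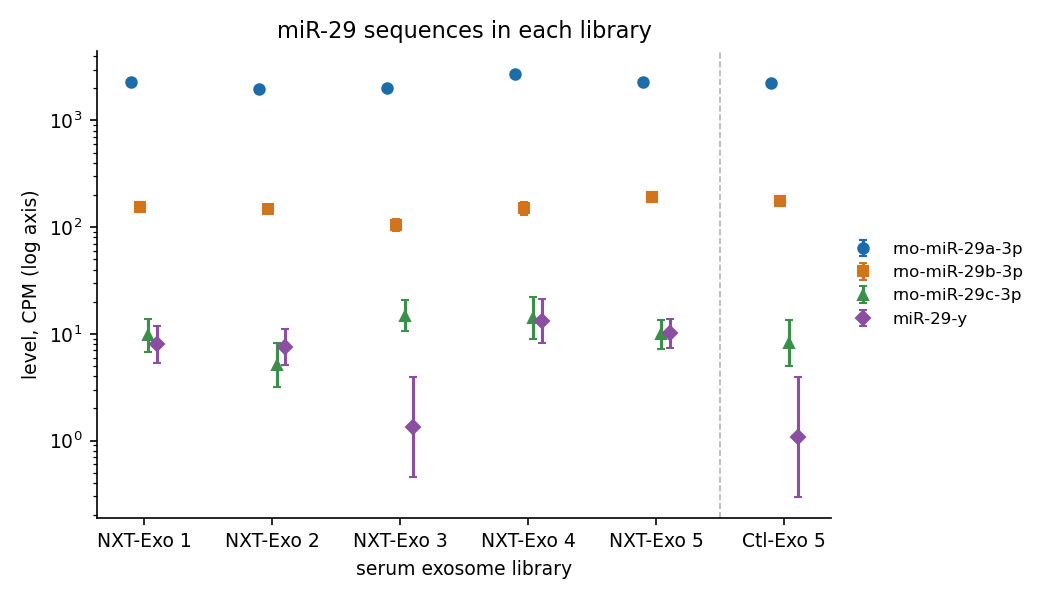
Level of the miR-29 sequences (CPM, log axis) in the 5 NXT-Exo libraries and, right of the dashed line, Ctl-Exo 5. Points are single libraries and bars are 95% Wilson intervals. rno-miR-29a-3p lies at 1959 to 2752 CPM, rno-miR-29b-3p at 105 to 192 CPM and rno-miR-29c-3p at 5.12 to 14.8 CPM, and miR-29-y is low in NXT-Exo 3 and Ctl-Exo 5.

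Over the 6 libraries the members held 36762 reads, 92.9% of them from rno-miR-29a-3p. Its share of member reads was 93.3% ± 1.09 (SD, n = 5) in NXT-Exo and 92.4% in Ctl-Exo 5. The share of rno-miR-29b-3p was 6.25% ± 1.21 (SD, n = 5) against 7.31%, and that of rno-miR-29c-3p 0.443% ± 0.165 (SD, n = 5) against 0.339%. In all 3 cases the value of Ctl-Exo 5 was inside the NXT-Exo range. Ratios of this kind are taken within a library and do not depend on the scaling between libraries.
The balance between rno-miR-29a-3p and rno-miR-29b-3p varied between libraries. There were 19.3 reads of rno-miR-29a-3p for each read of rno-miR-29b-3p where the ratio was highest and 11.9 where it was lowest, and 12.6 in Ctl-Exo 5. Of every 100 reads of this pair, rno-miR-29b-3p made up 4.93 in NXT-Exo 3 (Wilson interval 4.35 to 5.59) and 5.20 in NXT-Exo 4 (4.53 to 5.96). These intervals lay below those of NXT-Exo 2 (6.50 to 7.70), NXT-Exo 5 (7.24 to 8.32) and Ctl-Exo 5 (6.60 to 8.14). NXT-Exo 1 lay between them at 6.42 (5.88 to 7.00), overlapping NXT-Exo 4 as well as NXT-Exo 2 and Ctl-Exo 5. The NXT-Exo values thus covered a range that included Ctl-Exo 5, and the intervals leave out the variation between separate libraries.
For rno-miR-29c-3p against rno-miR-29a-3p, the highest value was 0.729 of every 100 reads of the pair in NXT-Exo 3 (Wilson interval 0.520 to 1.02) and the lowest 0.261 in NXT-Exo 2 (0.163 to 0.417). The intervals of these 2 libraries did not overlap, while Ctl-Exo 5 at 0.366 (0.222 to 0.603) overlapped with both. NXT-Exo 3 thus had the lowest share of rno-miR-29b-3p and the highest of rno-miR-29c-3p.

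**Figure D2:**
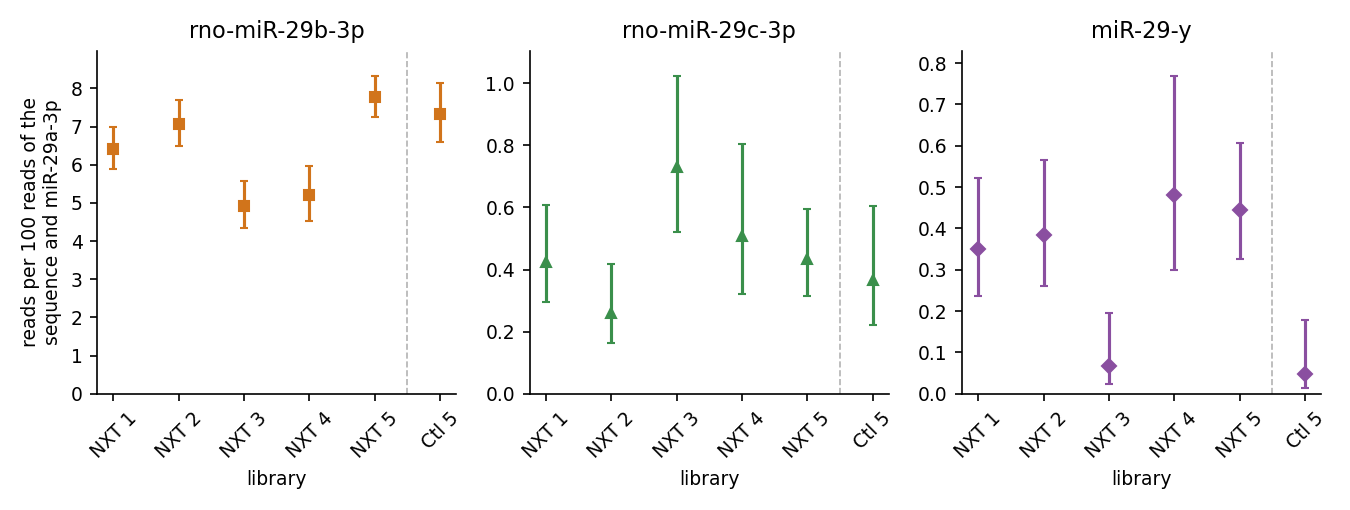
Reads of rno-miR-29b-3p, rno-miR-29c-3p and miR-29-y per 100 reads of the named sequence and rno-miR-29a-3p together, by library, on linear axes from 0 that differ between panels. Bars are 95% Wilson intervals, and Ctl-Exo 5 is right of the dashed line. rno-miR-29b-3p ranges from 4.93 in NXT-Exo 3 to 7.77 in NXT-Exo 5, and rno-miR-29c-3p is highest in NXT-Exo 3.

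Because rno-miR-29c-3p is 1 base from a sequence that was far more abundant, a misread base at position 10 of rno-miR-29a-3p would be listed as rno-miR-29c-3p, and its 150 reads over the 6 libraries are an uncertain count. Their origin was not tested. Summed over the libraries there were 0.439 reads of rno-miR-29c-3p per 100 reads of rno-miR-29a-3p. Among the 16 pairs of rat-named sequences of equal length that differ at 1 base, with at least 1000 reads of the commoner partner, this was the lowest value. The median over the 16 pairs was 36.8 reads of the rarer partner per 100 of the commoner one. The next lowest pairs were let-7e-5p with let-7a-5p at 1.56 and miR-23b-3p with miR-23a-3p at 3.83. Other pairs with a C-to-U change from the commoner to the rarer partner were miR-19a-3p with miR-19b-3p at 12.7, miR-30e-5p with miR-30a-5p at 74.2 and miR-30a-5p with miR-30d-5p at 75.8. These pairs were picked out after their values were seen. Several of these pairs share a partner, so they are a description of the table and not independent observations.

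**Figure D3:**
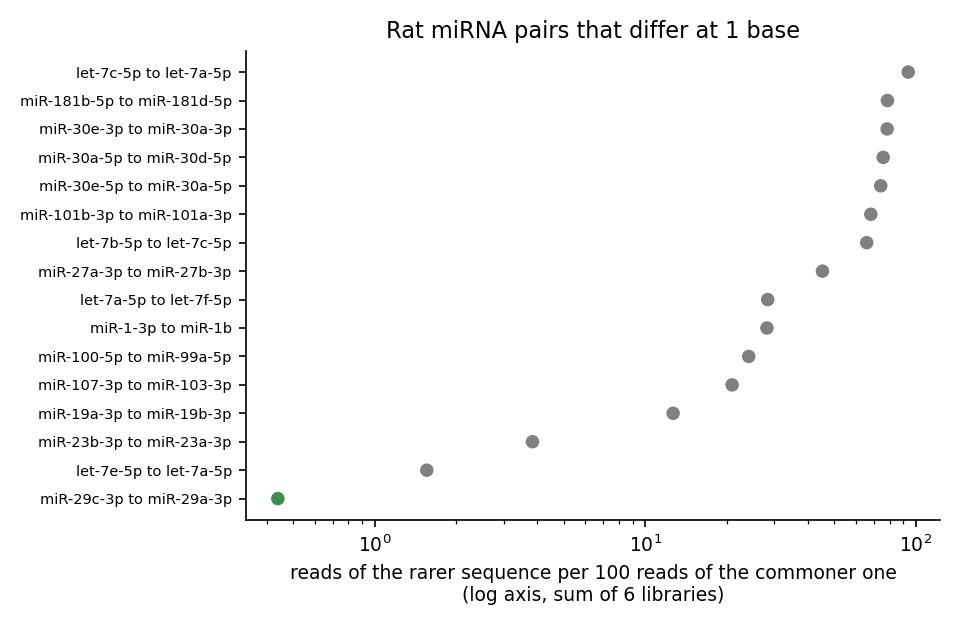
Reads of the rarer sequence per 100 reads of the commoner one (log axis, sum of the 6 libraries) for 16 pairs of rat miRNAs that differ at 1 base. Each point is a pair, with the rarer sequence named first. The pair of rno-miR-29c-3p and rno-miR-29a-3p, in green, is the lowest at 0.439.

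By reads, the sequences with the miR-29 seed ranked 36 of 588 groups of sequences that share bases 2 to 8. The leading sequence held 92.7% of the reads of the miR-29 group. Among the 37 such groups with at least 3 sequences and 1000 reads, the median share of the leading sequence was 81.2%, and 26 groups had a lower share than miR-29. A single leading member was thus common among these groups.

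To examine whether NXT changed the family in circulating exosomes, the NXT-Exo libraries were compared with Ctl-Exo 5. No member differed between NXT-Exo and Ctl-Exo 5 by more than the spread between the NXT-Exo libraries, and all 3 had Ctl-Exo 5 inside the NXT-Exo range. rno-miR-29a-3p was at 2257 ± 313 CPM (SD, n = 5) in NXT-Exo against 2223 CPM in Ctl-Exo 5, and 3 of 5 NXT-Exo libraries were higher. The difference on the log2(CPM + 1) scale was 0.022, compared with an SD of 0.19 between the NXT-Exo libraries. rno-miR-29b-3p was at 151 ± 31.0 CPM (SD, n = 5) against 176 CPM, and 4 of 5 NXT-Exo libraries were lower. Its log2 difference was -0.22, with an SD of 0.31. rno-miR-29c-3p was at 10.7 ± 3.91 CPM (SD, n = 5) against 8.17 CPM, with 4 of 5 NXT-Exo libraries higher, a log2 difference of 0.35 and an SD of 0.55. The 3 members together came to 2418 ± 326 CPM (SD, n = 5) in NXT-Exo, against 2407 CPM in Ctl-Exo 5.
In edgeR's quasi-likelihood test over all 865 miRNAs, which takes its spread from the NXT-Exo libraries and assumes that the single Ctl-Exo library analysed varies like them, the log2 fold change of rno-miR-29a-3p was 0.021 ± 0.23 (SE, adjusted p = 0.975). Its 95% interval ran from 0.730-fold to 1.41-fold, so a change of 2-fold in either direction was outside it. For rno-miR-29b-3p the log2 fold change was -0.22 ± 0.28 (SE, adjusted p = 0.815), with an interval from 0.576-fold to 1.28-fold. For rno-miR-29c-3p it was 0.36 ± 0.68 (SE, adjusted p = 0.885), and the interval from 0.489-fold to 3.39-fold included 2-fold changes in both directions.
Across the table edgeR called 0 of 865 miRNAs at an adjusted p under 0.05, a background of 0%. At an unadjusted p under 0.05 it gave 46, and DESeq2 called 0 after adjustment and gave 33 before it. Ctl-Exo 5 was outside the NXT-Exo range in 30.3% of all miRNAs, against 0 of the 3 members. When a difference of at least 2-fold on the CPM + 1 scale was also required, 11.4% of all miRNAs qualified, and again 0 of the 3 members. With 3 members, counts of 0 do not set the family apart from the table.

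**Figure D4:**
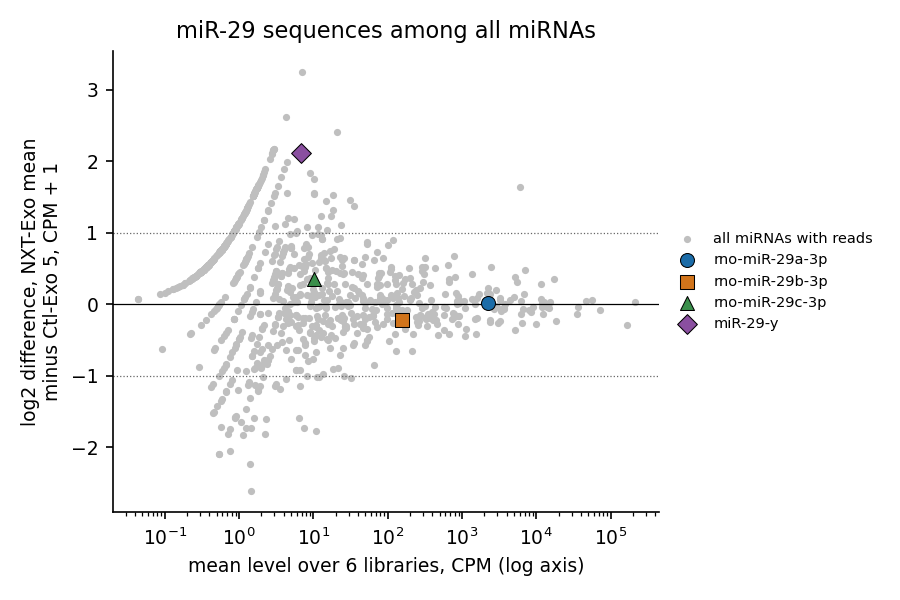
Log2(CPM + 1) of the NXT-Exo mean minus that of Ctl-Exo 5, plotted against the mean level over the 6 libraries (CPM, log axis). Grey points are the 865 miRNAs with reads, coloured symbols the miR-29 sequences, and dotted lines mark 2-fold. The 3 members lie at 0.022, -0.22 and 0.35, and miR-29-y at 2.12.

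Besides the members, 2 listed sequences carried the family name, miR-29-y and rno-miR-29b-5p. miR-29-y, the sequence that departs from rno-miR-29a-3p at its 3′ end, had 24, 25, 3, 17 and 39 reads in NXT-Exo 1 to 5, against 2 reads in Ctl-Exo 5. In CPM these were 8.00, 7.53, 1.35, 13.3 and 10.2 in NXT-Exo, against 1.09 in Ctl-Exo 5. All 5 NXT-Exo libraries were above Ctl-Exo 5, but NXT-Exo 3 was close to it and both were at or under 3 reads. The NXT-Exo mean of 8.07 ± 4.39 CPM (SD, n = 5) was 7.41 times Ctl-Exo 5, with a counting interval of 2.05 to 61.2 from its 2 reads. It was among the 46 miRNAs, 5.32% of all, that were at least 2-fold higher in NXT-Exo with Ctl-Exo 5 outside the range. In edgeR's quasi-likelihood test its adjusted p was 0.815, so it did not pass over the whole table. Per 100 reads of miR-29-y and rno-miR-29a-3p together, it made up 0.350, 0.383, 0.0668, 0.481 and 0.444 in NXT-Exo 1 to 5, against 0.0490 in Ctl-Exo 5, so that NXT-Exo 3 and Ctl-Exo 5 were both low. Listed sequences without the rat prefix were taken as a class, with the predicted miRNAs left out. This class took 4.60% to 4.95% of the NXT-Exo reads, against 4.09% in Ctl-Exo 5, and NXT-Exo 3 had the lowest NXT-Exo share. The part of this class in the result for miR-29-y was not tested.
rno-miR-29b-5p, the other arm of the Mir29b2 hairpin, had 3 reads in NXT-Exo 1, 5 in NXT-Exo 5 and 0 in the other libraries. A level of 3 reads, taken as the detection floor, is 0.782 to 2.35 CPM depending on the NXT-Exo library, and 1.63 CPM for Ctl-Exo 5, so no difference was detectable at this depth. Over the 6 libraries there were 306 reads of rno-miR-29b-3p for each read of rno-miR-29b-5p, and the 3p arm can also come from Mir29b1.

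The pattern across the libraries was compared between the members. Deviations are given as log2(CPM + 1) minus the mean over the 6 libraries. rno-miR-29a-3p deviated by 0.024, -0.19, -0.15, 0.30 and 0.027 in NXT-Exo 1 to 5, and by -0.0093 in Ctl-Exo 5. In NXT-Exo 3, rno-miR-29b-3p was at -0.53 and rno-miR-29c-3p at 0.56, whereas in NXT-Exo 2 rno-miR-29c-3p was at -0.82. The root mean square difference between the deviations was 0.26 for rno-miR-29a-3p and rno-miR-29b-3p, 0.40 for rno-miR-29a-3p and rno-miR-29c-3p, and 0.63 for rno-miR-29b-3p and rno-miR-29c-3p. For comparison, the median difference from the members' sum over all miRNAs that averaged 10 reads or more was 0.35. The 0.26 of rno-miR-29a-3p and rno-miR-29b-3p was under this median. However, the median includes miRNAs with far fewer reads than this pair and is not taken between pairs. It therefore cannot show whether these 2 members vary together. The values for rno-miR-29c-3p rest on 15 to 38 reads per library.
The coefficient of variation over the NXT-Exo libraries was 13.9% for rno-miR-29a-3p, 20.6% for rno-miR-29b-3p and 36.5% for rno-miR-29c-3p, while reads alone would give 1.36%, 5.48% and 20.3%. Among miRNAs within 2-fold of the same mean level the median was 12.5% for rno-miR-29a-3p (28 miRNAs), 16.1% for rno-miR-29b-3p (73) and 37.4% for rno-miR-29c-3p (146). Of these, 17 of 28, 54 of 73 and 71 of 146 varied less than the member, so rno-miR-29b-3p was among the more variable miRNAs of its level and the others were near the middle.

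The miRNAs whose pattern over the 6 libraries was nearest to that of the 3 members summed, by root mean square difference of the log2 deviations, were rno-miR-126a-5p at 0.068, rno-miR-152-3p at 0.075, rno-miR-126a-3p at 0.081, rno-miR-30b-5p at 0.086 and miR-27-y at 0.10. There were 463 miRNAs in this comparison. The sum consists mainly of rno-miR-29a-3p, so it is the pattern of that member that is compared. rno-miR-126a-5p and rno-miR-126a-3p are the arms of miR-126, which is abundant in endothelium and platelets. All 5 peaked in NXT-Exo 4, as did rno-miR-29a-3p, but they were chosen for likeness to a sum that peaks there. NXT-Exo 4 was also the smallest library with the largest TMM factor, 1.09. The part of library size in this likeness was not tested.

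**Figure D5:**
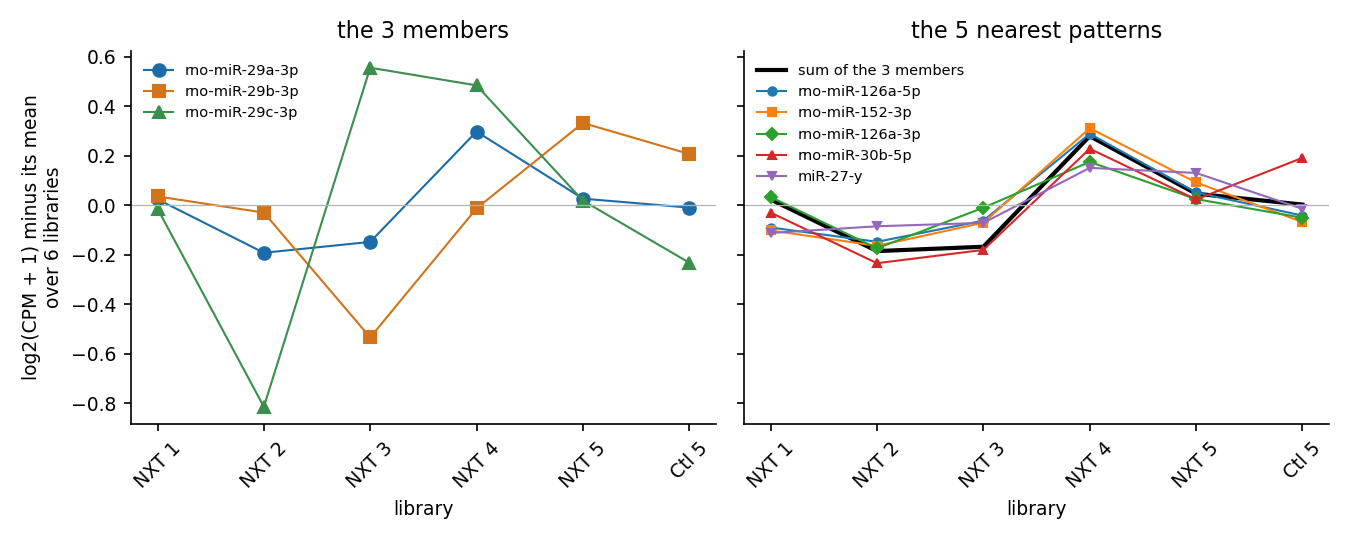
Log2(CPM + 1) minus its mean over the 6 libraries for the 3 members (left) and for the members summed with the 5 miRNAs nearest to that sum (right), by library. Points are single libraries, and lines join them only to guide the eye. On the left rno-miR-29b-3p and rno-miR-29c-3p lie at -0.53 and 0.56 in NXT-Exo 3, and on the right the curves peak in NXT-Exo 4.

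Since edgeR called 0 of all 865 miRNAs at an adjusted p under 0.05, no list could hold a call. This includes the 16 other miRNAs known to act on matrix and fibrosis genes. Their median log2 difference was -0.07, beside 0.16 over all miRNAs, though the latter was 0 when the NXT-Exo median replaced the mean. Ctl-Exo 5 was outside the NXT-Exo range for 6 of 16, beside 30.3% of all. It was below all NXT-Exo libraries for 5 of these 6 and above them for 1. The most abundant were rno-miR-26a-5p at 70442 ± 8055 CPM (SD, n = 5) against 74335 CPM, rno-miR-30a-5p at 9058 ± 736 CPM (SD, n = 5) against 9343 CPM, and rno-miR-30c-5p at 8505 ± 1117 CPM (SD, n = 5) against 9168 CPM.
Serum exosomes mix vesicles of many cells, and more vesicles from a cell type cannot be told apart from more of a miRNA per vesicle. The summed level of 7 red blood cell miRNAs, led by rno-miR-486, rno-miR-92a-3p and rno-miR-25-3p, was 244643 to 336213 CPM in NXT-Exo, against 283765 CPM in Ctl-Exo 5. The latter was outside the range for 1 of these 7, beside 30.3% of all miRNAs. The median log2 difference of these 7 was 0.026, beside 0.16 over all. The sum of 7 white blood cell and platelet miRNAs, led by rno-miR-142-5p, rno-miR-146a-5p and rno-miR-150-5p, was 24738 to 28604 CPM in NXT-Exo, against 30261 CPM in Ctl-Exo 5. Here Ctl-Exo 5 was outside the range for 3 of these 7, above in each case, beside 30.3% of all miRNAs in either direction. The median log2 difference of these 7 was -0.24, beside 0.16 over all. The value over all was 0 with the NXT-Exo median in place of the mean, and 0.053 with a pseudocount of 10 CPM. Of 3 liver miRNAs, the summed level was 3308 to 17431 CPM in NXT-Exo against 2203 CPM. rno-miR-122-5p was at 17384, 3294, 3711, 3372 and 6430 CPM in NXT-Exo 1 to 5, against 2195 CPM in Ctl-Exo 5. It was the 1 of these 3 that was 2-fold apart with Ctl-Exo 5 outside the range, beside 11.4% of all miRNAs. Its 2-fold difference rested on NXT-Exo 1, without which the fold on the CPM + 1 scale was 1.91. rno-miR-122-3p had a log2 difference of 1.23, over 2-fold, with Ctl-Exo 5 inside the NXT-Exo range, and for rno-miR-802-5p both Ctl-Exo 5 and NXT-Exo 2 were at 0 reads. No miRNA of any list had 0 reads in all libraries, and the part of these cell types in the miR-29 values was not tested.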

How the data were processed

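Small RNA libraries (TruSeq, Illumina HiSeq) were made from serum exosomes isolated by ultracentrifugation. The authors cleaned the reads with ACGT101-miR of adapter dimers, low-complexity reads, other RNA families and repeats, and deposited raw counts per listed miRNA sequence and library. The submitters' processing notes name the build Rnor 6.0, and the aligner and miRNA release are not given in the sources used here. The authors also deposited TPM values, which are the counts times a constant per library with 0 reads written as 0.01. They were used only as an alternative. Another 8 columns of counts and TPM, headed Ctl-Exo 1 to 4, have no entry in the sample descriptions used here and were not used.

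The members and lists were chosen with earlier results of these data known. In R 4.3.3, TMM factors were computed by edgeR 4.0.16, and counts were fitted by its quasi-likelihood test (group as the only term) over the 865 miRNAs with at least 1 read, with Benjamini-Hochberg adjustment. DESeq2 1.42.0 was an alternative. The SE is the log2 fold change divided by the root of F. Log2 differences compare the mean CPM + 1 of NXT-Exo with the CPM + 1 of Ctl-Exo 5. Wilson 95% intervals, a floor of 3 reads and exact Poisson limits for ratios were calculated in Python 3.11.15 with scipy 1.17.1. Chi-square per degree of freedom between libraries was 38.1 to 272, so no 2 were taken as repeats of 1 library. This does not show that they come from separate rats. The p-values set a difference against the spread between the NXT-Exo libraries, since the single Ctl-Exo library gives none. Named miRNAs are the members, other sequences with the family name or seed, the 5 nearest patterns, and the 3 most abundant of each list plus any called. The pairs differing at 1 base and the seed groups were added after the data were seen. The fits were tested on simulated data. Sequences are from RefSeq (GRCr8): all 5 members matched by name.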

Additional observations from a re-analysis of the deposited data

How the results depend on the processing

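The log2 differences of the 3 members shifted by less than 1 SD (NXT-Exo libraries) under pseudocounts of 0.1 and 10 CPM, median-of-ratios factors, the listed total, the NXT-Exo median, the mean of log2 values, the deposited TPM values (added after the data were seen) and without each NXT-Exo library. They were -0.06 to 0.09 for rno-miR-29a-3p, -0.33 to -0.11 for rno-miR-29b-3p and 0.19 to 0.52 for rno-miR-29c-3p. In edgeR the log2 fold change of rno-miR-29a-3p (0.021) was -0.059 to 0.072 without each NXT-Exo library in turn. It changed sign without NXT-Exo replicate 4 (-0.059). No member passed the threshold in any fit, DESeq2 and the minimum mean of 10 reads included. The log2 difference of miR-29-y (2.12) fell to 0.70 with a pseudocount of 10 CPM, and its edgeR fold change was 2.61 to 3.09 on the log2 scale in all alternatives.

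Over the table, edgeR called 0 to 1 miRNAs without each NXT-Exo library, the single call being rno-miR-122-5p without NXT-Exo replicate 2 (adjusted p = 0.0315, edgeR). Its log2 difference (1.64) was 0.94 to 1.84 without each NXT-Exo library (added after the data were seen), being least when NXT-Exo replicate 1 was left out. The 99 miRNAs that were 2-fold apart with Ctl-Exo 5 outside the range became 4 with a pseudocount of 10 CPM and 30 with a minimum mean of 10 reads, where fewer miRNAs were tested. Median-of-ratios factors and the listed total moved the median log2 difference of all miRNAs by -0.011 and 0.047. The NXT-Exo median took it from 0.16 to 0, and a pseudocount of 10 CPM took it to 0.053. Adding the reads of miR-29-y to rno-miR-29a-3p raised its mean share from 93.31% to 93.33%, and no other listed sequence contained a member or was contained in one. Ratios of 3p to 5p reads were not run for miR-29a and miR-29c, whose 5p arms had no entry among the listed sequences. No paired analysis was possible because, among the libraries analysed here, only number 5 occurs in both groups. The few reads of rno-miR-29c-3p, the spread between libraries and the use of 1 Ctl-Exo library limit what can be detected.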

Other observations

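In none of 15 sets of 5 NXT-Exo values, the levels, shares and ratios of the miR-29 sequences, was the gap of an extreme library to the next above the critical value of 0.71 of the range. The nearest to it was the share of miR-29-y relative to rno-miR-29a-3p, with a gap of 0.685 below the other libraries for NXT-Exo 3. The reads of rno-miR-29b-3p per read of rno-miR-29c-3p ranged from 7.06 to 29.1 in NXT-Exo and were 21.5 in Ctl-Exo 5.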
